A study of Mus musculus with 4 samples.

Results

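The TRAJ15 to TRAJ24 segments are a neighbouring group of joining (J) segments of the TCRα locus, and their use was followed in splenic CD4 T cells of wild type (WT) mice and of mice that lack TET2 and TET3 in T cells. A clone was counted as a member when the first J segment listed for it had a TRAJ number from 15 to 24. In all, 46442 of 189388 TCRα clones met this rule, and they held 222943 of 871808 TCRα reads. Of the 10 segments in this range, 8 were found, and TRAJ19 and TRAJ20 were named for no clone. The members numbered 9364 of 39463 clones in WT replicate 1 and 11862 of 48790 in WT replicate 2. They numbered 11577 of 47291 clones in Tet2/3 DKO replicate 1 and 13639 of 53844 in Tet2/3 DKO replicate 2.

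The study asked whether the loss of TET2 and TET3, enzymes that oxidise methylated cytosine in DNA, alters the T cell receptor repertoire. The Tet2/3 DKO mice were Tet2-/- Tet3 flx/flx CD4Cre, so that Tet2 was deleted in every cell of the body and Tet3 only from the CD4 and CD8 double positive stage of thymic development on, when CD4Cre becomes active. The WT mice were C57BL/6, and the mice were about 25 days old (the Tet2/3 DKO mice were used from 22 to 25 days of age). From the spleen, live TCRβ+ CD4+ cells were sorted that were negative for CD25 and for the CD1d tetramer loaded with αGalCer, which was meant to leave out invariant natural killer T (iNKT) cells. Libraries came from 2 samples per genotype that are labelled as biological replicates, and the total TCRα reads were 172506 and 216457 in WT against 195046 and 287799 in Tet2/3 DKO. The kit adds no molecular identifiers, so that reads are PCR copies, and the intervals and limits given here cover counting error only.

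A TCRα chain is assembled in thymocytes by joining a variable (V) segment to a J segment, with bases trimmed from both ends and others inserted between them. The join forms the third complementarity determining region (CDR3), the part of the chain that lies over the peptide. Rearrangement starts at the J segments nearest the V segments, which have the highest numbers, and can be repeated on the same allele with J segments farther downstream. TRAJ18 is known as the J segment of the invariant TCRα chain of iNKT cells, where it is joined to a TRAV11 family segment. A join that is out of frame makes no receptor and persists in a cell that carries a working chain on its other allele, so that out-of-frame clones give a view of rearrangement with less selection.

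In the GRCm38.p6 annotation of RefSeq, all 10 segments lie within 8837 bases on chromosome 14, from chr14:54195645-54195700 for Traj24 to chr14:54204422-54204481 for Traj15, and each is annotated as a J segment. Traj23 lies at chr14:54196081-54196140, Traj22 at chr14:54197248-54197307, Traj21 at chr14:54198790-54198846, Traj18 at chr14:54200777-54200842, Traj17 at chr14:54201775-54201837 and Traj16 at chr14:54203134-54203194. The sequences of the 8 segments found are shown because their length, their trimming and the motif that closes the CDR3 enter the results that follow. Each line gives the sequence found most often among clones in which the segment was untrimmed, 5′ to 3′ on the sense strand, as read from the deposited clone sequences. Capitals mark the 4 codons of the conserved motif phenylalanine, glycine, any residue, glycine, whose first codon is the last of the CDR3.
TRAJ15: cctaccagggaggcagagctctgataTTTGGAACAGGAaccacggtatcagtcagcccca
TRAJ16: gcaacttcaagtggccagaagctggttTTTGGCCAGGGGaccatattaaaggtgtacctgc
TRAJ17: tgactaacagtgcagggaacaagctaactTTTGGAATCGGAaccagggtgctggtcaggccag
TRAJ18: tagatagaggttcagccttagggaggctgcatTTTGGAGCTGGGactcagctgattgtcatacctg
TRAJ21: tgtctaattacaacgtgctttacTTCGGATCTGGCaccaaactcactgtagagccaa
TRAJ22: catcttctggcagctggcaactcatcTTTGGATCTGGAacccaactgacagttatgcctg
TRAJ23: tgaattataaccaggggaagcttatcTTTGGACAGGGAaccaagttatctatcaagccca
TRAJ24: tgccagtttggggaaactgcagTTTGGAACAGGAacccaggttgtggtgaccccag

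All 8 sequences carry the motif, and each has the length that RefSeq gives for its segment. TRAJ18 is the longest with 66 bases, of which 35 can enter the CDR3, and TRAJ24 has 56 bases from its annotated start, of which 25 can. The bases before this start are described with its joins, and its length is not ranked. TRAJ21 has 57 bases, of which 26 can enter the CDR3. The sequence shown was found in 96.6% of untrimmed TRAJ24 clones and in 65.0% of untrimmed TRAJ18 clones, of which there were 1926 and 80.

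The members together held 24.04% and 25.96% of the TCRα reads in WT against 26.02% and 25.90% in Tet2/3 DKO, and the genotypes overlapped. The difference of 0.959 percentage points, which was -0.00076 without WT replicate 1 and 1.92 without WT replicate 2, was smaller than the spread in WT (means 25% ± 1.36 and 25.96% ± 0.0852, SD, n = 2, two-sided exact permutation p = 0.667). With each clone counted once, the members were 23.73% and 24.31% of the clones in WT against 24.48% and 25.33% in Tet2/3 DKO. Both Tet2/3 DKO libraries lay above both WT libraries by this measure, with a mean difference of 0.885 percentage points, which was 0.46 without Tet2/3 DKO replicate 2 and 0.593 without WT replicate 1 (two-sided exact permutation p = 0.33). Among out-of-frame clones the shares were 22.98% and 23.99% in WT against 24.15% and 24.62% in Tet2/3 DKO, again with no overlap and a difference of 0.900 percentage points, which was 0.394 without WT replicate 1 and 1.41 without WT replicate 2 (two-sided exact permutation p = 0.33). With 2 libraries against 2, this test cannot give a p below 0.33, and p-values here measure the spread between these samples only.

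The segments differed widely in use, and their order was shared by the genotypes. TRAJ23 was used most, with 4.76% and 5.21% of the clones in WT against 5.12% and 5.27% in Tet2/3 DKO, and by reads it ranked as number 2 of the 44 TRAJ segments found. TRAJ22 followed with 4.28% and 4.25% of clones in WT against 4.15% and 4.26% in Tet2/3 DKO. TRAJ21 had 3.78% and 3.75% in WT against 3.86% and 3.97% in Tet2/3 DKO, and TRAJ15 had 3.47% and 3.49% in WT against 3.50% and 3.81% in Tet2/3 DKO. The ranges of TRAJ21 and TRAJ15 over the 4 libraries overlapped, and those of all other neighbours in the order by clones did not. TRAJ17 and TRAJ18 held 2.91% to 3.06% and 2.21% to 2.31% of the clones. TRAJ16 and TRAJ24, the least used members, held 1.29% to 1.45% and 0.996% to 1.21%. By reads, the ranges of TRAJ23 and TRAJ22, of TRAJ15 and TRAJ21, and of TRAJ16 and TRAJ24 overlapped.

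**Figure D1:**
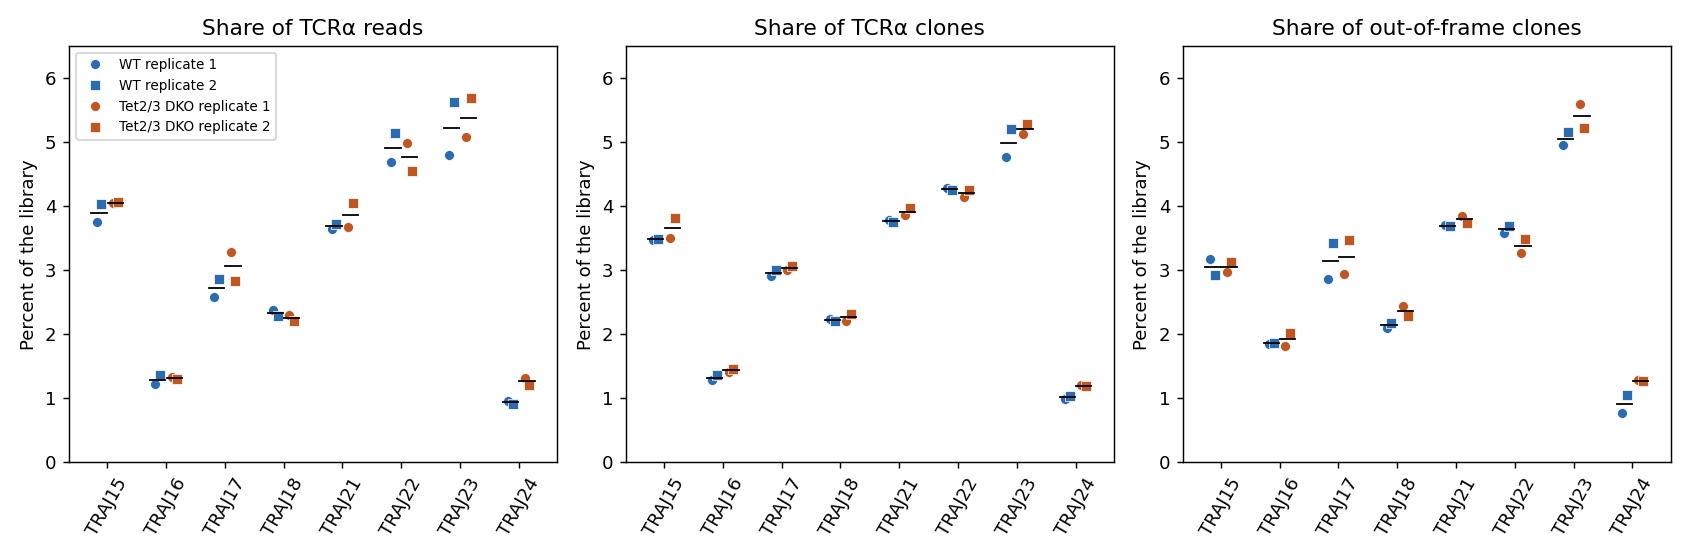
Share of TCRα reads, of TCRα clones and of out-of-frame clones (percent of the library, vertical axis) for each of the 8 segments found, with 1 point per library (blue WT, orange Tet2/3 DKO, circles replicate 1, squares replicate 2) and bars at the mean of each genotype. TRAJ23 is highest and TRAJ24 lowest in the shares of clones and of out-of-frame clones, and TRAJ24 is the only segment whose Tet2/3 DKO points lie above both WT points in all 3 panels.

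TRAJ24 showed the largest log2 fold change between genotypes among the members, and it did not pass the threshold in any of the 3 counts. It held 0.965% and 0.917% of the reads in WT against 1.32% and 1.21% in Tet2/3 DKO. By clones it held 0.996% and 1.04% in WT (393 and 508 clones) and 1.21% and 1.19% in Tet2/3 DKO (571 and 641 clones). In out-of-frame clones it held 0.766% and 1.06% in WT (41 and 67 clones) and 1.28% and 1.26% in Tet2/3 DKO (81 and 91 clones). Both Tet2/3 DKO libraries were thus higher than both WT libraries in all 3 counts. The log2 fold change of Tet2/3 DKO over WT was 0.43 by reads (SE 0.14, adjusted p = 0.0505 from the quasi-likelihood test of edgeR), 0.23 by clones (SE 0.04, adjusted p = 0.0824, edgeR) and 0.46 in out-of-frame clones (SE 0.18, adjusted p = 0.230, edgeR). In clones under 0.02% of the reads, TRAJ24 held 0.857% and 0.877% of all TCRα reads in WT against 1.12% and 0.919% in Tet2/3 DKO. The means of WT and Tet2/3 DKO were then 0.867% and 1.02%, nearer to each other than with all clones (0.941% and 1.26%). By clones TRAJ24 passed the threshold of 0.05 in 2 of 11 alternative settings, with adjusted p from 0.0175 to 0.828 over them, and the direction was the same in all 11. By reads it passed in 0 of 11, with adjusted p from 0.0734 to 0.807, and in out-of-frame clones in 0 of 9, with adjusted p from 0.13 to 0.991. The log2 fold change in out-of-frame clones was 0.26 without WT replicate 1 and 0.73 without WT replicate 2. The settings in which it passed by clones were the one with libraries drawn down to equal reads (adjusted p = 0.0175, edgeR) and the one without Tet2/3 DKO replicate 1 (adjusted p = 0.0358, edgeR). In the latter the spread comes from the 2 WT libraries alone, and the single Tet2/3 DKO library is assumed to vary like them.

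For the other 7 members the differences were small. By reads their log2 fold changes ran from -0.05 for TRAJ18 to 0.17 for TRAJ17, each with an SE of 0.11 to 0.14. By clones they ran from -0.02 for TRAJ22 to 0.11 for TRAJ16 (SE 0.04, adjusted p = 0.348 from edgeR, 508 and 664 clones in WT against 671 and 782 in Tet2/3 DKO). In out-of-frame clones they ran from -0.11 for TRAJ22 to 0.14 for TRAJ18. In edgeR's test by reads 0 of the 8 members passed the threshold, while 2 of all 43 segments tested did (4.65%), and 1 member had an unadjusted p under 0.05, as did 3 of all 43 segments. DESeq2 also called 0 members by reads, by clones and in out-of-frame clones. By clones 0 members passed, against 0 of 43 segments (0%), and 2 members had an unadjusted p under 0.05, as did 5 of all 43 segments. In out-of-frame clones 0 members passed, again against 0 of 43 (0%), and 1 member had an unadjusted p under 0.05, as did 5 of all 43.

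The libraries of the genotypes did not overlap, with Tet2/3 DKO higher, for 2 of 8 members by reads (TRAJ15 and TRAJ24), beside 14% of all segments tested. By clones this held for 5 of 8 (TRAJ15, TRAJ16, TRAJ17, TRAJ21 and TRAJ24), beside 34.9% of all segments. In out-of-frame clones it held for 4 of 8 (TRAJ18, TRAJ21, TRAJ23 and TRAJ24), beside 25.6%, and TRAJ22 was lower in both Tet2/3 DKO libraries. The median log2 fold change of the 8 members was 0.05 by reads, 0.06 by clones and 0.04 in out-of-frame clones, and over all segments tested it was 0.0092, 0.0069 and 0.02.

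**Figure D2:**
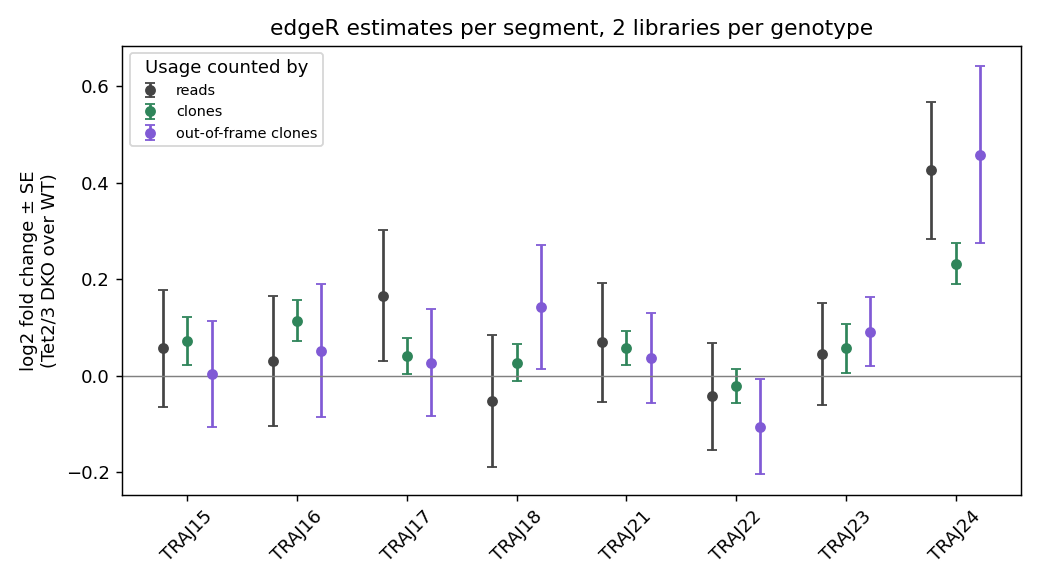
Log2 fold change of Tet2/3 DKO over WT (vertical axis) for each segment from edgeR, with usage counted by reads (grey), clones (green) or out-of-frame clones (purple), and bars of 1 SE on either side, from 2 libraries per genotype. Each SE was derived from the F statistic of the test, and by clones it can lie below the counting error. TRAJ24 lies at 0.43, 0.23 and 0.46, and the other 7 segments lie between -0.11 and 0.17.

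Between 13.2% and 13.6% of the members' clones with a CDR3 were out of frame. These shares were 13.6% and 13.2% in WT against 13.6% and 13.3% in Tet2/3 DKO, which overlapped (difference 0.0622 percentage points, two-sided exact permutation p = 1). Among clones of at least 2 reads the shares were 13.27% and 12.91% in WT against 13.41% and 13.29% in Tet2/3 DKO, which did not overlap (difference 0.257 percentage points, two-sided exact permutation p = 0.33). In each of the 4 libraries the share was lower than that of all other TRAJ segments, by a mean of 0.412 percentage points ± 0.164 (SD, n = 4, two-sided exact sign-flip permutation p over libraries = 0.13, the smallest it can give). TRAJ16 stood apart among the members with 20.1% and 18.2% out of frame in WT against 17.5% and 19% in Tet2/3 DKO, number 6 of the 43 segments. TRAJ22 and TRAJ15 had the lowest means over the libraries, with 11.1% to 12.3% and 11.1% to 12.7%, while in WT replicate 1 TRAJ24 was lowest at 11.08%. In-frame clones of the members held a mean of 4.66 and 4.96 reads in WT against 4.59 and 5.69 in Tet2/3 DKO. Their out-of-frame clones held fewer reads in every library, 3.21 and 3.47 in WT against 3.20 and 4.22 in Tet2/3 DKO.

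No CDR3 was found for 3.75% and 3.02% of the members' clones in WT against 2.84% and 2.60% in Tet2/3 DKO, and for 3.86% and 3.45% against 2.95% and 2.46% of the clones of all other TRAJ segments. In both sets the WT libraries were higher than the Tet2/3 DKO libraries (two-sided exact permutation p = 0.33 for the members). TRAJ22 had the highest share of the members in each library, with 7.81% and 6.27% in WT against 4.79% and 4.58% in Tet2/3 DKO. Of these 132 and 130 TRAJ22 clones in WT, 56 and 69 carried TRAV6-6, and of the 94 and 105 in Tet2/3 DKO, 48 and 46 did. They were 41.8% and 46.3% of all TRAV6-6 clones with TRAJ22 in WT against 29.6% and 30.3% in Tet2/3 DKO. Over all members, 22.03% and 21.49% of TRAV6-6 clones had no CDR3 in WT against 14.62% and 14.85% in Tet2/3 DKO, and with all other TRAJ segments 22.25% and 20.83% against 16.23% and 14.95%. Among the members other than TRAJ22, the share of TRAV6-6 clones without a CDR3 ran from 2.13% with TRAJ16 in Tet2/3 DKO replicate 1 to 33.3% with TRAJ24 in WT replicate 2. Clones without a CDR3 stayed in the counts of usage and were left out of the shares by frame.

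In-frame CDR3s of the members had mean lengths of 13.47 and 13.48 amino acids in WT against 13.51 and 13.57 in Tet2/3 DKO. Both Tet2/3 DKO libraries had longer CDR3s than both WT libraries, by a mean of 0.0643 amino acids, which was 0.0382 without Tet2/3 DKO replicate 2 (13.5 ± 0.00938 in WT against 13.5 ± 0.0368 in Tet2/3 DKO, SD, n = 2, two-sided exact permutation p = 0.33). All other TRAJ segments moved by a similar amount, from 13.35 and 13.36 to 13.41 and 13.45. Members had longer CDR3s than the other segments in all 4 libraries, by 0.115 ± 0.00702 amino acids (SD, n = 4, two-sided exact sign-flip permutation p = 0.13).

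Segments differed in CDR3 length more than the genotypes did. TRAJ21 gave the shortest CDR3s of the members, with 12.67 and 12.73 amino acids in WT against 12.71 and 12.81 in Tet2/3 DKO, number 5 from the short end of 43 segments. TRAJ18 gave the longest, with 14.54 and 14.48 in WT against 14.59 and 14.62 in Tet2/3 DKO, number 6 from the long end. TRAJ24 came next with 14.06 and 14.16 in WT against 14.25 and 14.30 in Tet2/3 DKO. Its difference of 0.167 amino acids between the genotypes was the largest among the members. Without overlap, 5 of 8 members (TRAJ17, TRAJ18, TRAJ22, TRAJ23 and TRAJ24) had longer CDR3s in both Tet2/3 DKO libraries, beside 51.2% of all segments, and TRAJ16 was the only member with a lower mean in Tet2/3 DKO (difference -0.0170). Weighted by reads, this held for 1 of 8 members (TRAJ17), beside 37.2% of all segments, and the difference over all members was 0.0370 amino acids. By reads, the TRAJ23 mean was 13.3 and 13.3 in WT against 13.4 and 13.1 in Tet2/3 DKO, and in the last library a single clonotype with a CDR3 of 11 amino acids, described further on, held 11.7% of the TRAJ23 reads.

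**Figure D3:**
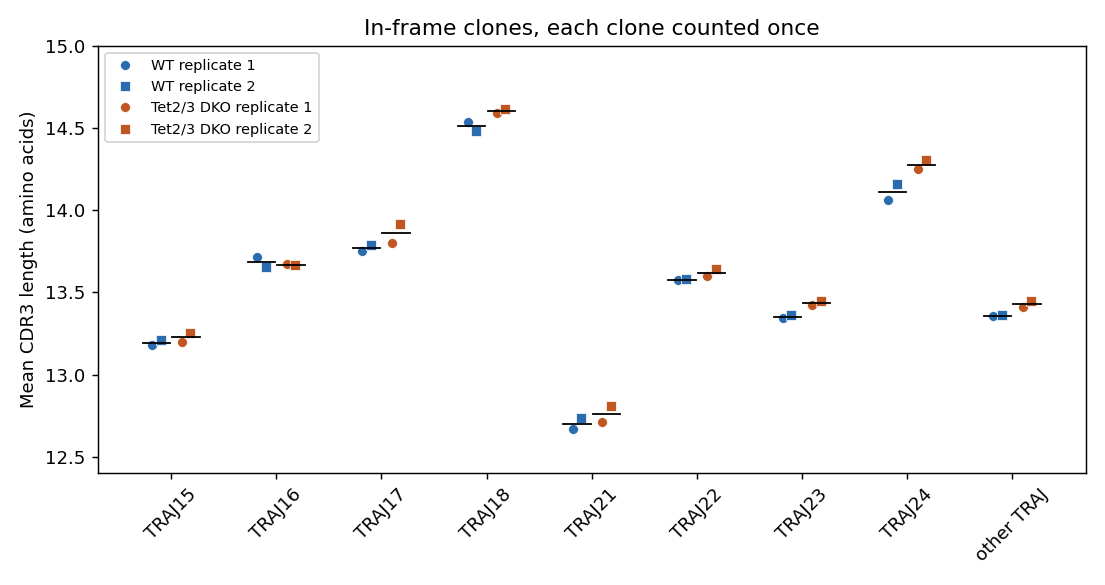
Mean CDR3 length in amino acids (vertical axis, which does not start at 0) of in-frame clones for each segment and for all other TRAJ segments, with 1 point per library and bars at the mean of each genotype. The means run from 12.67 for TRAJ21 to 14.62 for TRAJ18, and the genotypes of a segment differ by at most 0.167.

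Trimming of the J segment was read in out-of-frame clones. TRAJ18 lost a mean of 4.54 and 4.66 bases in WT against 4.85 and 4.02 in Tet2/3 DKO, and TRAJ17 lost 4.07 and 4.27 in WT against 4.01 and 4.04 in Tet2/3 DKO. TRAJ21 and TRAJ22 lost between 1.66 and 1.96 bases in every library. Over all members the loss was 2.71 and 2.76 bases in WT against 2.79 and 2.68 in Tet2/3 DKO, with equal means (2.73 ± 0.0397 and 2.73 ± 0.0798, SD, n = 2, two-sided exact permutation p = 1). Without TRAJ24, whose joins are described further on, the loss was 2.80 and 2.88 bases in WT against 2.94 and 2.81 in Tet2/3 DKO. This was below the loss of the other TRAJ segments in all 4 libraries (3.16, 3.14, 3.05 and 2.95 bases), by 0.213 bases ± 0.116 (SD, n = 4, two-sided exact sign-flip permutation p = 0.13). In in-frame clones the members without TRAJ24 lost 2.995 and 3.007 bases in WT against 2.912 and 2.902 in Tet2/3 DKO, with no overlap (two-sided exact permutation p = 0.33). All other TRAJ segments moved by a similar amount, from 3.115 and 3.124 to 3.071 and 2.964.

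At the join, the recorded values of TRAJ24 depend on where the segment is taken to start. From its annotated start it was recorded as untrimmed in 92.4% and 96.9% of in-frame clones in WT against 95.5% and 96.3% in Tet2/3 DKO. The bases recorded as inserted between V and J averaged 6.29 and 6.01 in WT against 6.12 and 6.32 in Tet2/3 DKO. Whether the bases before the annotated start came from the V segment, were inserted or belong to TRAJ24 itself was not tested. They were read in the 1944 TRAJ24 clones with no J base trimmed (1926 of them also without added palindromic bases). The base directly before the segment was C in 98.7% of them, and the bases before it were A in 90.0%, A in 80.3%, C in 73.2%, A in 59.7% and G in 55.3%. In 39 other segments the most frequent base directly before the segment reached 42.4% to 86.8%, with a median of 63.7%, and at positions 2, 3 and 4 before it the most frequent base reached at most 68.0%, 46.0% and 52.6%. At positions 5 and 6 the highest values in these segments were 57.5% and 59.5%, close to or above those of TRAJ24. The sequence is printed with these 6 most frequent bases in capitals before the annotated start.
TRAJ24 with the preceding bases: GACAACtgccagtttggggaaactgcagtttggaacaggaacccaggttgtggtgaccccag

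All 6 bases were present together in 36.6% of the untrimmed TRAJ24 clones and the last 4 in 68.6%. The trimming and insertion lengths of TRAJ24 count from the annotated start and are not compared with those of other segments. CDR3 lengths do not use that start.

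Each member was joined to 82 to 96 V segments over the 4 libraries. TRAV7-2 was the most frequent partner of all 8, with 15.1% and 15.2% of the TRAJ15 clones in WT against 16.4% and 15.4% in Tet2/3 DKO, the highest mean share over the 4 libraries. In Tet2/3 DKO replicate 2 its share of TRAJ24 clones was higher, at 17.5%. The lowest share in each library was with TRAJ23, at 9.95% and 8.89% in WT against 9.17% and 7.71% in Tet2/3 DKO. TRAV7-2 took a larger share of members' clones than of other clones in all 4 libraries, by 3.30 percentage points ± 0.171 (SD, n = 4, two-sided exact sign-flip permutation p = 0.13). All 5400 member clones named TRAV7-2 matched several V segments equally well, so that this name stands for near-identical copies. TRAV17, TRAV19 and TRAV21, which lie nearest the J segments, were rare partners, with 0.331% and 0.236% of the members' clones in WT against 0.225% and 0.257% in Tet2/3 DKO. Their share was 16.1% to 18.8% with TRAJ48 and above and 0.133% to 0.170% with TRAJ2 to TRAJ13, so that the members lie near the low end of this range.

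In the test of single V-J pairs by clones, 497 of the 720 pairs found among the members were tested and 0 passed the threshold, against 0 of 2386 pairs in all (0%, edgeR, with an unadjusted p under 0.05 for 23 member pairs and for 110 pairs in all), and DESeq2 also called 0 member pairs. TRAV7-2 with TRAJ24 had 51 and 51 clones in WT against 66 and 112 in Tet2/3 DKO (log2 fold change 0.59, SE 0.21, adjusted p = 0.979, edgeR). For TRAV7-2 with the other 7 members the log2 fold changes lay between -0.10 and 0.26. TRAV4D-4 with TRAJ24, named after its values were seen because it had the smallest p of all member pairs, had 3 and 4 clones in WT against 17 and 18 in Tet2/3 DKO (log2 fold change 2.09, SE 0.57, adjusted p = 0.776, edgeR).

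TRAJ18 paired with the TRAV11 family more often than any other member did. With the 4 libraries pooled, a TRAV11 family segment was found in 4.4% of its 4253 clones, number 2 of the 44 segments. TRAJ6 was close behind with 4.31%, and the rank was not taken within each genotype. The share was 2.73% for TRAJ17, 0.974% for TRAJ15, 0.782% for TRAJ21, 0.229% for TRAJ16, 0.189% for TRAJ24 and 0.0998% for TRAJ22. For TRAJ23, the most used member, it was 0 of 9683 clones, which allows a share of up to 0.0310%.

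By library, the TRAV11 family made up 6.33% and 4.46% of the TRAJ18 clones in WT (56 and 48 clones) and 3.15% and 4.02% in Tet2/3 DKO (33 and 50 clones). Both Tet2/3 DKO shares were below both WT shares, by a mean of 1.81 percentage points, which was 0.877 without WT replicate 1 and 2.74 without WT replicate 2 (5.39% ± 1.32 and 3.58% ± 0.611, SD, n = 2, two-sided exact permutation p = 0.33). By reads the separation was clearer relative to the spread, with 5.47% and 5.79% of the TRAJ18 reads in WT against 3.26% and 3.48% in Tet2/3 DKO. As a share of all TCRα reads, TRAJ18 with the TRAV11 family held 0.130% and 0.133% in WT against 0.0749% and 0.0768% in Tet2/3 DKO. TRAJ18 with any other V held 2.26% and 2.16% of the reads in WT against 2.22% and 2.13% in Tet2/3 DKO, which overlapped. By clones it held 2.101% and 2.107% in WT against 2.144% and 2.219% in Tet2/3 DKO, which did not overlap (two-sided exact permutation p = 0.33). For single pairs by clones, TRAV11 with TRAJ18 had 49 and 36 clones in WT against 25 and 34 in Tet2/3 DKO (log2 fold change -0.74, SE 0.30, adjusted p = 0.979, edgeR). TRAV11N with TRAJ18 had 7 and 12 clones in WT against 8 and 16 in Tet2/3 DKO (log2 fold change 0.14, SE 0.50, adjusted p = 0.997, edgeR).

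Clones of TRAJ18 with the TRAV11 family were out of frame more often than other TRAJ18 clones in all 4 libraries. The shares were 33.9% and 35.6% in WT against 34.4% and 46.0% in Tet2/3 DKO with the TRAV11 family, and 11.4% and 12.1% in WT against 14.47% and 11.96% in Tet2/3 DKO with other V segments. TRAV11 family clones with segments other than TRAJ18 were out of frame in 36.6% and 39.6% of cases in WT against 41.3% and 41.0% in Tet2/3 DKO. The high share was thus not limited to TRAJ18. In-frame CDR3s of TRAJ18 with the TRAV11 family had a mean of 14.95 and 15.17 amino acids in WT against 15.05 and 15 in Tet2/3 DKO, and 45.9% and 51.7% of them in WT against 42.9% and 32.0% in Tet2/3 DKO had exactly 15. With other V segments, TRAJ18 clones of 15 amino acids made up 32.7% to 36.3%.

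**Figure D4:**
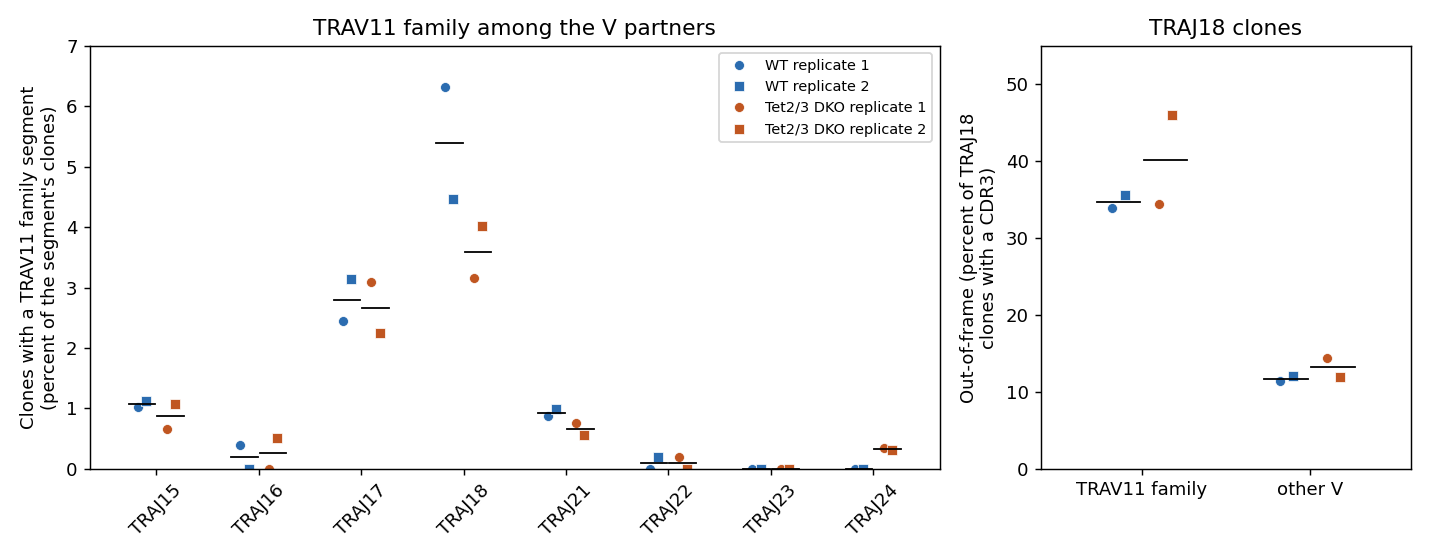
Left, clones with a TRAV11 family segment as a percent of each segment's clones (vertical axis), and right, out-of-frame clones as a percent of the TRAJ18 clones with a CDR3, for TRAV11 family and other V segments, with 1 point per library and bars at the mean of each genotype. TRAJ18 reaches 6.33% in WT replicate 1 and TRAJ23 lies at 0 in all 4 libraries, and the out-of-frame share is 33.9% to 46.0% with TRAV11 against 11.4% to 14.5% with other V segments.

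The invariant chain of iNKT cells, which the sort was set to leave out, was defined as TRAJ18 with a TRAV11 family segment and the most frequent CDR3 of 15 amino acids among such clones. It was found in 13 clones, 3 and 5 in WT against 3 and 2 in Tet2/3 DKO, with 4 nucleotide sequences that encode the same CDR3. They are shown because they differ only where V and J meet, and capitals mark the part taken from TRAJ18.
Sequence with 62 reads: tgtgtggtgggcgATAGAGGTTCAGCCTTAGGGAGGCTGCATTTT
Sequence with 32 reads: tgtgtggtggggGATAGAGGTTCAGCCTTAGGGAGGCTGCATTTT
Sequence with 21 reads: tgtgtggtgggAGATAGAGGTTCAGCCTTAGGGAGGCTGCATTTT
Sequence with 16 reads: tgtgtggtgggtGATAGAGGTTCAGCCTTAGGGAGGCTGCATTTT

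The reads are those of all libraries, and each sequence was found in 2 or 3 libraries. Together they held 0.826% and 1.43% of the TRAJ18 reads in WT against 0.312% and 0.189% in Tet2/3 DKO (34, 71, 14 and 12 reads). Both WT libraries were higher by reads (two-sided exact permutation p = 0.33), while the numbers of clones overlapped (two-sided exact permutation p = 0.667), and the chain made up a minor part of the TRAJ18 reads with the TRAV11 family, 15.1% and 24.7% in WT against 9.59% and 5.43% in Tet2/3 DKO. With any CDR3 of 15 amino acids, such clones numbered 17 and 15 in WT against 9 and 8 in Tet2/3 DKO. Their reads were 107 and 117 in WT against 59 and 55 in Tet2/3 DKO. Neither measure overlapped, but both include the invariant chain. They therefore cannot show whether the lower values in Tet2/3 DKO extended beyond that chain.

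V-J pairs of the members that the study lists among the abundant chains of transferred Tet2/3 DKO cells were looked up in these untransferred cells. TRAV5-4 with TRAJ24 was found in 0 and 1 clones in WT against 1 and 2 in Tet2/3 DKO, and the largest of these clones had 23 reads. TRAV9N-3 or TRAV9D-3 with TRAJ23 was found in 0 and 2 clones in WT against 0 and 4 in Tet2/3 DKO. The same V segments with TRAJ21 were found in 1 and 2 clones in WT against 1 and 3 in Tet2/3 DKO. All of these pairs were thus rare, with at most 8 reads in a clone of the last pair and at most 4 in a clone of the pair with TRAJ23. TRAV8N-2 with TRAJ18 had 4 and 2 clones in WT against 9 and 12 in Tet2/3 DKO, higher in both Tet2/3 DKO libraries (log2 fold change 1.57, SE 0.67, adjusted p = 0.979, edgeR). TRAV7-5 with TRAJ15 was the most frequent of these pairs, with 49 and 72 clones in WT against 70 and 81 in Tet2/3 DKO, which overlapped (log2 fold change 0.13, SE 0.21, adjusted p = 0.989, edgeR).

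Large clones were counted as those with at least 0.02% of the TCRα reads of their library. The members had 65 and 66 such clones in WT against 54 and 93 in Tet2/3 DKO, which held 2.72% and 2.55% of all TCRα reads in WT against 2.48% and 4.75% in Tet2/3 DKO. Tet2/3 DKO replicate 2 was higher and Tet2/3 DKO replicate 1 lower than both WT libraries (two-sided exact permutation p = 1 for both measures). With a limit of 0.01% of the reads, both Tet2/3 DKO libraries had fewer such member clones (222 and 233 in WT against 189 and 213). Over all TRAJ segments the numbers at this limit overlapped, with 853 and 707 in WT against 624 and 719 in Tet2/3 DKO. Members were 24.6% and 33.0% of all large clones in WT against 32.3% and 31.2% in Tet2/3 DKO. Of the 278 large member clones, 262 were in frame, 14 were out of frame and 2 had no CDR3. The in-frame ones held 188 distinct combinations of V, J and CDR3, of which 32 occurred in several libraries. TRAJ22 supplied 68 of the 278 large member clones, TRAJ15 60 and TRAJ23 59. TRAJ17 had 4 and 3 large clones in WT against 9 and 9 in Tet2/3 DKO, which held 0.128% and 0.0753% of the reads in WT against 0.508% and 0.371% in Tet2/3 DKO (two-sided exact permutation p = 0.33). TRAJ16 had 3 and 4 in WT against 1 and 2 in Tet2/3 DKO (two-sided exact permutation p = 0.33). These held 0.101% and 0.137% of the reads in WT against 0.0241% and 0.0733% in Tet2/3 DKO. The numbers of large clones of the other members overlapped between the genotypes. For TRAJ24 the reads in large clones did not overlap, with 0.108% and 0.0397% in WT against 0.196% and 0.289% in Tet2/3 DKO. Other TRAJ segments were not split in this way, so the share of all segments whose large clones separate the genotypes is not known.

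**Figure D5:**
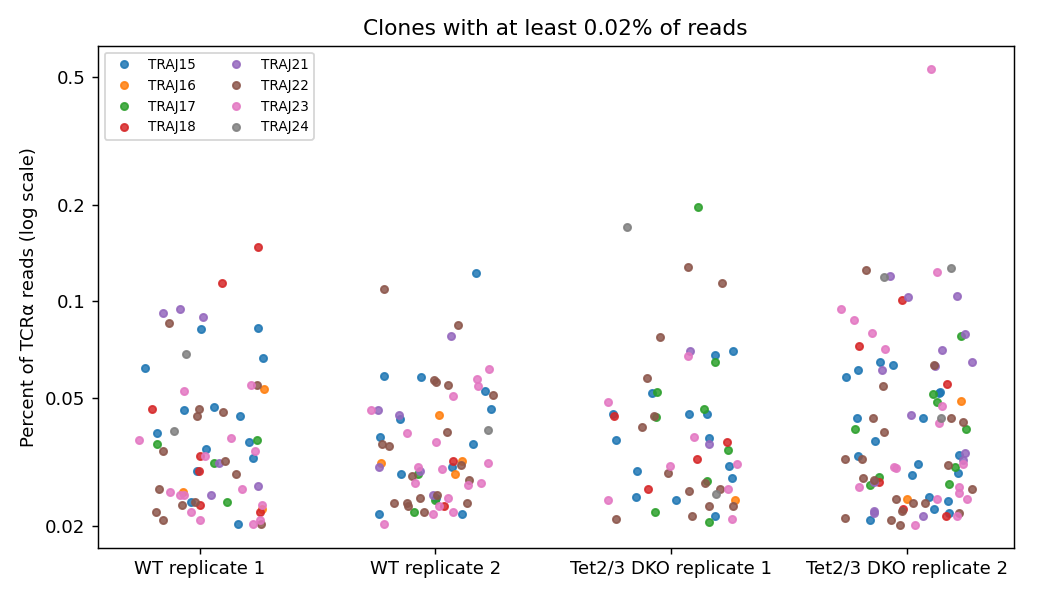
Large clones of the members in each library, with the percent of TCRα reads on a log scale (vertical axis) and 1 point per clone, coloured by segment. The clone at 0.530% in Tet2/3 DKO replicate 2 uses TRAJ23, and no member clone in the other libraries exceeds 0.197%.

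The most abundant member clone of each library used a different segment. Their CDR3s are shown from the first to the last codon, with the part aligned to the J segment in capitals. In the TRAJ15 clone of WT replicate 2 this part differs from the segment sequence given above at 1 base (T3C, counted from 1 at the 5′ end of the segment), and in the other clones at 0 bases.
WT replicate 1, TRAV6N-6 with TRAJ18: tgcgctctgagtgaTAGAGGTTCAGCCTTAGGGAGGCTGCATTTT
WT replicate 2, TRAV6N-6 with TRAJ15: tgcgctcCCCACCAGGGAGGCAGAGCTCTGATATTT
Tet2/3 DKO replicate 1, TRAV6-5 with TRAJ17: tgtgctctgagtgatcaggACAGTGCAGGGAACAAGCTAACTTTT
Tet2/3 DKO replicate 2, TRAV6-3 with TRAJ23: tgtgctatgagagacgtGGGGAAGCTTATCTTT

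The TRAJ18 clone of WT replicate 1 held 254 reads, a share of 0.147% (95% Wilson interval 0.130% to 0.166%). Clones with this V and J and an identical CDR3 were also found in the other libraries, with 20 reads in 1 clone of WT replicate 2, 25 reads in 2 clones of Tet2/3 DKO replicate 1 and 15 reads in 3 clones of Tet2/3 DKO replicate 2. The TRAJ15 clone of WT replicate 2 held 266 reads (0.123%, 0.109% to 0.139%). The TRAJ17 clone of Tet2/3 DKO replicate 1 held 384 reads (0.197%, 0.178% to 0.218%). The TRAJ23 clone of Tet2/3 DKO replicate 2 held 1524 reads (0.530%, 0.504% to 0.557%), had lost 13 bases of TRAJ23 and was the clone with rank 4 in its library. The last 3 were each found in their own library alone. With the further clones that share its CDR3, the TRAJ23 clonotype of Tet2/3 DKO replicate 2 held 1919 reads in 13 clones, of which the second had 355. Without this clonotype, TRAJ23 held 5.02% of the reads in that library in place of 5.69%. The next clone of the members in that library was an out-of-frame TRAV7D-5 and TRAJ24 clone with 365 reads, while the second in Tet2/3 DKO replicate 1 was an in-frame TRAV14D-1 and TRAJ24 clone with 333 reads. Both clones matched several V segments equally well, and the V segment listed first is named.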

How the data were processed

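TCRα libraries from splenic CD4 cells of 2 WT and 2 Tet2/3 DKO mice were analysed. The authors made cDNA by 5′ RACE from 20 ng of RNA. Their processing notes name fastp 0.21.0 for read trimming and mm10, and clones were assembled by MiXCR. The deposited tables list, per clone, a read count and a fraction of the library, and the fraction served as a check of the counts alone. The first listed V and J segments were used without alleles, and clones without a CDR3 stayed in counts of usage. Usage was tested with edgeR 4.0.16 (quasi-likelihood) on counts per segment or V-J pair, scaled by library totals, with at least 10 counts in all, Benjamini-Hochberg adjustment over all features and a threshold of 0.05. The script was tested on simulated data. Each SE of an edgeR log2 fold change was taken as its absolute value divided by the square root of the F statistic of the test. By clones this SE can lie below the counting error. DESeq2 1.42.0 was an alternative. Single values were compared by exact permutation tests (scipy 1.17.1).

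The members, lists and tests were chosen with earlier results of these data known. Named in the text are all members found, the most frequent V partner of each, the most abundant member clone of each library, the TRAV11 family with TRAJ18, up to 2 rising and 2 falling pairs past the threshold (none passed), and pairs that held at least 3% in a library of transferred cells according to the study's supplement. TRAV4D-4 with TRAJ24, TRAV6-6, the second clones of the Tet2/3 DKO libraries and the bases before TRAJ24 were chosen after their values were seen. Trimming and insertion lengths were taken from the reference points in the deposited tables. Clone counts per segment of the 2 WT libraries differed by no more than sampling noise (chi-square p = 0.527) and those of the 2 Tet2/3 DKO libraries by more (p = 1.62e-06). The numbers of clonotypes shared by the 2 WT libraries (5.81% of their union) and by the 2 Tet2/3 DKO libraries (6.14%) were like those of pairs across genotypes (5.76% to 6.20%), and no library was counted as a duplicate. Same-numbered libraries were not taken as pairs, since the labels give no shared origin. Coordinates and segment lengths are those of RefSeq on GRCm38.p6, and all 10 segments matched by symbol.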

Additional observations from a re-analysis of the deposited data

How the results depend on the processing

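The alternatives covered normalization, DESeq2, the filters, clones of at least 2 reads, merged clones, in-frame clones, libraries drawn down to equal reads and each library left out; leaving out TRAJ24 for trimming was added after its values were seen. Among single values 56 alternatives kept the direction and 9 turned it. With 2 libraries per genotype the exact permutation test used for single values cannot pass 0.05, and rare pairs and out-of-frame clones are limited by their counts. The number of member segments called by clones was 1 with libraries drawn down to equal reads (TRAJ24) and 0 to 2 with a library left out, 2 of them without Tet2/3 DKO replicate 1, where TRAJ24 had a log2 fold change of 0.22 (adjusted p = 0.0358, edgeR) and TRAJ15 0.13 (adjusted p = 0.0403, edgeR). In that setting the WT libraries alone supply the spread, and the single Tet2/3 DKO library is assumed to vary like them. It was 0 in all other settings, and by reads, in out-of-frame clones and for pairs it was 0 in every setting.

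Over libraries left out, the difference of Tet2/3 DKO minus WT ran from -0.00076 to 1.92 percentage points for the share of reads (reversed without WT replicate 1), from 0.46 to 1.31 for the share of clones, from 0.394 to 1.41 for the share of out-of-frame clones, from -0.172 to 0.297 for the share of the members' clones that were out of frame, from -0.0564 to 0.0564 bases for J trimming, from -0.0905 to 0.00455 percentage points for TRAV17, TRAV19 and TRAV21, from -11.5 to 27.5 for the number of large clones and from -0.16 to 2.11 percentage points for their reads, the last pair negative without Tet2/3 DKO replicate 2. The TRAV11 share of TRAJ18 clones differed by -2.74 to -0.877 and the CDR3 length by 0.0382 to 0.0903 amino acids. With clones of at least 0.01% of reads, the number of large member clones differed by -26.5 (222 and 233 in WT, 189 and 213 in Tet2/3 DKO). The cause of these changes was not tested.

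Log2 fold changes near 0 changed sign as follows. By reads, without the 10 most abundant clones, TRAJ18 had 0.00942 and TRAJ23 -0.0101, and with a library left out TRAJ16 ran from -0.0408 to 0.107, TRAJ21 from -0.000595 to 0.135, TRAJ22 from -0.11 to 0.0259 and TRAJ23 from -0.0654 to 0.165. By clones, TRAJ18 had -0.0166 with clones of at least 2 reads and -0.00536 to 0.0573 with a library left out, and TRAJ23 -0.0033 to 0.126. In out-of-frame clones, TMM normalization gave -0.0263 for TRAJ15 and -0.00292 for TRAJ17, and DESeq2 -0.00912 for TRAJ15. With a library left out, TRAJ15 ran from -0.0583 to 0.0589, TRAJ16 from -0.0344 to 0.13 and TRAJ17 from -0.106 to 0.171.

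Deviations of same-numbered libraries correlated at -0.0502 by reads and 0.161 by clones over 43 segments, which are not independent replicates. With a replicate block, TRAJ24 had log2 fold changes of 0.42 by reads, 0.23 by clones and 0.46 in out-of-frame clones (adjusted p = 0.733, 0.315 and 0.369, edgeR), and 0 members were called in each of the 4 tests, as without it.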

Other observations

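In-frame clonotypes of the members, each a distinct combination of V, J and translated CDR3, were found in all 4 libraries in 708 of 23180 cases (3.05%), and in 1 library alone in 80.1%. For the other TRAJ segments 2.14% of 76246 clonotypes were found in all 4. TRAJ22 had the highest share of the members (4.39% of 3505 clonotypes) and TRAJ24 the lowest (1.10% of 1269). TRAJ24 clonotypes were also those most often found in a single library (88.7%). These shares were not tested, since clonotypes of 1 library are not independent.

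Of the 44 TRAJ segments, 8 had no clone with a TRAV11 family segment. TRAJ23 had by far the most clones among them, 9683, followed by TRAJ30 with 5780.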
